A study of Mus musculus with 8 samples.

Results

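The RUNX factor loci are the genes Runx1, Runx2, Runx3 and Cbfb, each taken as its annotated gene body with 50 kb on either side in the mm10 mouse genome (GENCODE release M21). They were examined for open chromatin in SN4741, a line made from the substantia nigra of mouse embryos and labelled as neural precursor cells with a WT genotype. The 4 genes, of 21911 protein-coding genes, held 97 of the 84777 consensus regions of open chromatin, with 31 regions at Runx1, 33 at Runx2, 20 at Runx3 and 13 at Cbfb. Chromatin was profiled by ATAC-seq, in which a transposase tags accessible DNA, and a region belonged to the consensus when at least 2 of 8 libraries had a peak there. The 4 libraries of the permissive temperature came from cells kept at 37 °C in 10% serum. The 4 libraries of the non-permissive temperature came from cells moved, 24 h after passage, to 39 °C and 0.5% serum for 48 h. The cells of all 8 libraries carried the same T antigen, a temperature-sensitive form driven by the tyrosine hydroxylase promoter, and each library was made from 50000 cells with 12 cycles of amplification. SN4741 is 1 line with a polyploid, unstable karyotype, and temperature and serum cannot be told apart in any comparison below.

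RUNX proteins bind DNA through the runt domain, and Runx1, Runx2 and Runx3 encode the DNA-binding subunits. CBFβ, encoded by Cbfb, binds no DNA itself and strengthens the binding of its RUNX partner. Runx1 is best known for its role in blood stem cell formation, Runx2 for bone and hypertrophic cartilage, and Runx3 for T cells and for proprioceptive sensory neurons. Each Runx gene can be transcribed from a distal and a proximal promoter, the distal one being the first in the direction of transcription.

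The libraries held 49.8 to 169 M fragments (M, mega) at 37 °C and 52.7 to 71.2 M at 39 °C, and 74026 to 92013 and 54845 to 68410 peaks respectively. Replicates 1 and 4 at 37 °C were the 2 libraries above 100 M fragments, so depth and list length differed with temperature and their part in the results was not tested beyond the values given here. Because the lists hold no read counts, peaks were compared by presence, by the width they cover, and by their percentile within their own list when ordered by −log10 q, where 100 is the highest peak. As a check of the label, promoters of 5 of 8 neural precursor markers, Nes, Sox2, Pax6, Msi1 and Vim, had a peak in all 8 libraries, whereas Fabp7 had none, Hes5 had one in 2 libraries and Sox1 in 7. Over all coding genes, 59.9% had a promoter peak in all 8 libraries. Of 5 mesenchymal markers 4 had a promoter peak in all 8 libraries, with Thy1 in none. Of 4 cartilage and bone markers 3, Sox9, Sp7 and Bglap, had one in all 8, with Ibsp in none, and of 6 blood markers no promoter was called in all 8. Some of the marker peaks called in all 8 ranked low at 39 °C. Percentiles there were 9.28 to 30.5 at Pax6, 14.3 to 19 at Sp7 and 3.28 to 15.1 at Bglap. An open promoter does not show expression.

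The distal promoters of the 3 Runx genes share a short stretch that holds a pair of RUNX sites, and it is shown here because it lies where the main difference between the temperatures was found. RUNX sites are in capitals, read as TGTGGT or TGCGGT on either strand (ACCACA or ACCGCA on the opposite one), each line runs 5′ to 3′ along the strand of the gene, and sequences are from RefSeq, GRCm38.p6. The windows are chr16:92826025-92826054 (minus strand), chr17:44814581-44814610 (minus strand) and chr4:135120505-135120534 (plus strand).
Runx1 distal promoter: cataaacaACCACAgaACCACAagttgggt
Runx2 distal promoter: caaacaACCACAgaACCACAagTGCGGTgc
Runx3 distal promoter: ccctcaACCACAgaACCACAaggccaggcc

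The run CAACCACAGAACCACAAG, 18 bases long, was identical in all 3 genes. It was found in 4 of 32851 RefSeq promoter windows (250 bases before to 50 after a start), those of Runx1, Runx2, Runx3 and Gm16225, a long noncoding RNA that starts beside Runx3 on the opposite strand. A RUNX site was present in 22.4% of these promoters and a pair of sites within 10 bp in 0.213%. The run began at base +27 from the RefSeq start of Runx1, at +22 from that of Runx2 and at −136 from that of Runx3, so that it lay upstream of the start in Runx3 alone of the 3. The RefSeq table held 6 promoters of the 4 genes, and the 3 distal ones held 2 CpG dinucleotides at Runx1, 2 at Runx2 and 8 at Runx3, against a median of 7 over all promoters. The proximal promoters of Runx1 and Runx3 held 35 and 45 CpG dinucleotides and the promoter of Cbfb 30, with no RUNX site by these letters in any of the 3.

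The distal promoter of Runx3 was open at 37 °C and was not called at 39 °C. Its region also lies within 1 kb of a start of the noncoding RNA Gm16225, and the calls cannot tell which promoter they belong to. The region, chr4:135118722-135120867, was called in 4 of 4 libraries at 37 °C and in 0 of 4 at 39 °C (two-sided Fisher's exact test, p = 0.0286, the smallest that 4 against 4 libraries allow). Its percentiles at 37 °C were 50.5, 41.3, 50.9 and 56.7 in replicates 1 to 4, and its covered widths were 2106, 1955, 1522 and 2128 bp. All 4 values placed it near the middle of its list rather than at the lower end. No region of the genome could pass the test after adjustment over all 84777 regions (smallest adjusted p 0.450, 0 passing, 5386 with an unadjusted p under 0.05).

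Restriction to 37 °C was itself common, since 6.04% of all consensus regions were called in 4 of 4 libraries at 37 °C and in none at 39 °C, whereas 0.314% were restricted to 39 °C. Among regions as high as the Runx3 distal promoter it was less so. Of 39154 regions called in all 4 libraries at 37 °C with a mean percentile of at least 49.8, 95 regions (0.243%) had no peak at 39 °C, and they made up 1.86% of the 5120 restricted regions. That cut is the promoter's own mean at 37 °C, so these shares are a description and not a test. The Runx3 distal promoter kept 4 of 4 against 0 when every list was limited to its 54845 highest peaks, and its restriction held in all 16 alternative peak sets and selections of libraries.

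The summits of this peak lay on either side of the paired RUNX sites, and in no library inside the 30-base window given above. Those in replicates 1 to 4 at 37 °C lay at −154, −106, −216 and −101 bp from the annotated start. Only their median position, chr4:135120522, fell inside that window. The 250 bases before the RefSeq start, chr4:135120395-135120644 on the plus strand, are printed with the same RUNX sites in capitals.
Runx3 distal promoter, upstream bases: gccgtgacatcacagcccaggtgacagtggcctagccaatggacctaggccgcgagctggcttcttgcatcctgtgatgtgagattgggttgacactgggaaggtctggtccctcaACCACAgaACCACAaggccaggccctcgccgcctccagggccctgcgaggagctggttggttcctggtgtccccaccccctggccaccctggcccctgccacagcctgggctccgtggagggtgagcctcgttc

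The other start clusters of these genes, groups of annotated starts at most 1 kb apart, were called at both temperatures. Of 8 start clusters, 7 had a peak within 1 kb in all 8 libraries, compared with 34.8% of the 48561 start clusters of all coding genes, and 1, the first of Runx3, was restricted to 37 °C, as were 2.58% of all start clusters. Start clusters 2 and 3 of Runx1 were called by the same broad peak in each library, with its summit 1.20 to 1.37 kb from cluster 3. The share restricted to 39 °C was 0.0103% over all genes and 0 of 8 here. Distal promoters carrying the same 18 bases therefore differed in their calls, with Runx1 and Runx2 open in 8 of 8 libraries and Runx3 in 4 of 8.

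**Figure D1:**
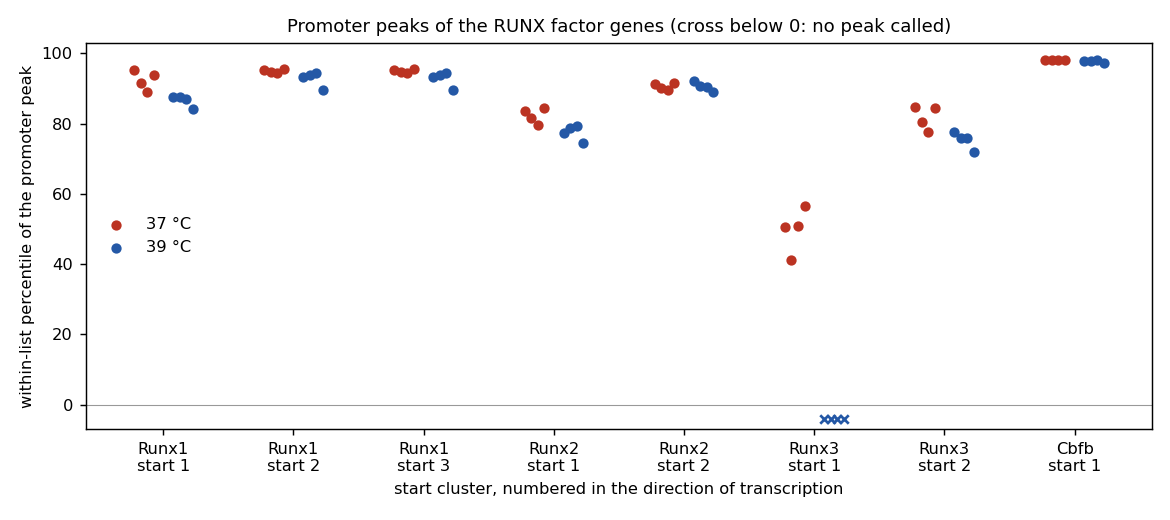
Within-list percentile (vertical axis, 100 is the highest peak of a list) of the promoter peak at each of the 8 start clusters, 1 point per library, red for 37 °C and blue for 39 °C, with a cross below 0 where no peak was called. The crosses are the 4 libraries at 39 °C at the first start of Runx3, whose 37 °C values run from 41.3 to 56.7.

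Across the whole Runx3 window fewer regions were called at 39 °C. The 37 °C libraries called 20, 16, 15 and 20 of its 20 regions and the 39 °C libraries 10, 10, 10 and 8. Every library at 37 °C was above every library at 39 °C, with means of 17.8 ± 2.63 and 9.50 ± 1.00 (SD, n = 4 each). The difference of −8.25 regions gave an exact permutation p of 0.0286, the smallest of 70 assignments, and an adjusted p of 0.0830 over 18976 gene windows. Fewer regions at 39 °C with an exact permutation p under 0.05 were found in 34.2% of coding gene windows (6499), more regions in 0.179%, and 0 windows passed after adjustment. Among the 9080 windows with at least 10 regions, many of which overlap each other, 11.7% had a ratio of called regions as low as the 0.535 of Runx3, against a median of 0.717. Among the 6 libraries under 100 M fragments the difference was −7.75 (exact permutation p = 0.0667, the smallest that 2 against 4 libraries allow). With lists of equal length the window held 11 regions, of which 11, 10, 9 and 11 were called at 37 °C and 7, 8, 8 and 8 at 39 °C. The difference was then −2.5 (exact permutation p = 0.0286), and at that p 13.2% of coding gene windows had fewer regions at 39 °C and 3.27% had more.

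The length of the Runx3 window covered by peaks was 50.3, 39.1, 31.9 and 44.6 kb at 37 °C and 19.9, 19.2, 19.3 and 14.95 kb at 39 °C. The groups did not overlap, and the ratio of the means was 0.443 (41.5 ± 7.81 kb against 18.4 ± 2.29 kb, SD, n = 4 each, exact permutation p = 0.0286, adjusted p = 0.0698). A smaller covered length at that p was found in 40.8% of coding gene windows and a larger one in 0.148%. The median ratio over the windows with at least 10 regions was 0.672, and 6.38% of them had a ratio as low as that of Runx3. With lists of equal length, an alternative chosen after seeing the data, the ratio was 0.507 (exact permutation p = 0.0286), and at that p the covered length was smaller at 39 °C in 33.2% of windows and larger in 0.765%.

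**Figure D2:**
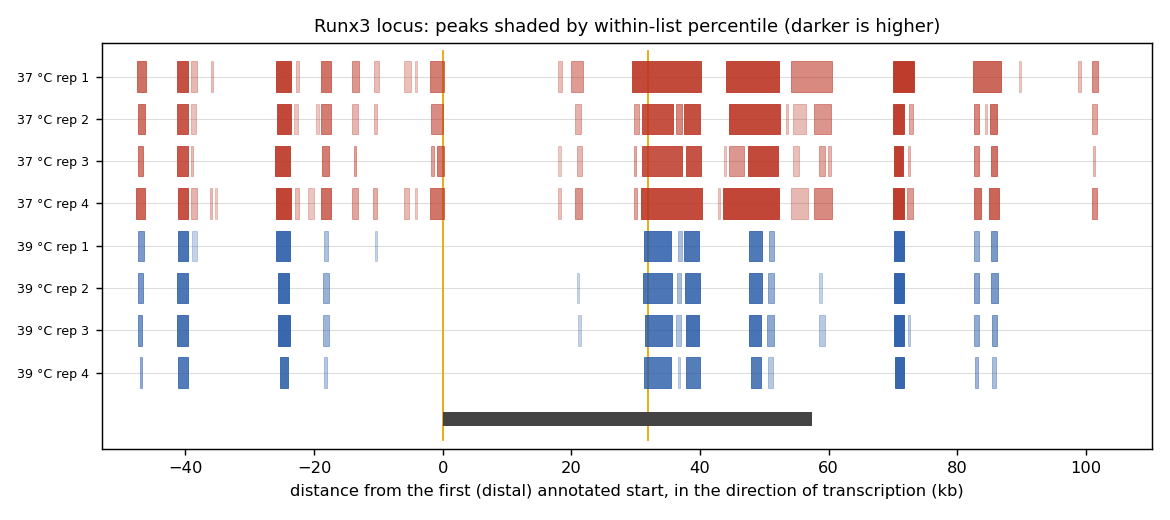
Peaks in the Runx3 window by library (rows, red for 37 °C and blue for 39 °C), against distance in kb from the first annotated start, with darker shading for a higher within-list percentile, the gene as a grey bar and start clusters as yellow lines. At 0 kb the 4 upper rows have a peak and the 4 lower rows have none, and from 43 to 52 kb the upper rows are covered by 7406 to 8786 bp and the lower rows by 2293 to 3045 bp.

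The broadest single change lay near the 3′ end of the gene, in a region named after its values were seen. The intronic region chr4:135164182-135173010 was covered over 8221, 7909, 7406 and 8786 bp at 37 °C and over 2797, 3045, 2854 and 2293 bp at 39 °C. All 4 libraries at 39 °C were narrower than any at 37 °C, and in each of them the region was split into 2 peaks, while at 37 °C replicates 1, 2 and 4 had 1 peak and replicate 3 had 3. The log2 width differed by −1.56 ± 0.11 (SE, limma, adjusted p = 0.000305 over 44861 regions called in all 8 libraries), and by −1.26 (adjusted p = 3.32e-05) after each width was divided by its library's median. A smaller width at 39 °C passed this test in 14.9% of all such regions and a larger one in 0.459%, and widths without overlap between the groups were smaller at 39 °C in 24.1% and larger in 0.74%.

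The same region also moved down in rank. Its within-list percentiles were 86.6, 84.7, 85.5 and 87.3 at 37 °C and 73.8, 75.3, 77.6 and 70.4 at 39 °C. For tests of rank, each library's regions were ranked among the 44861 shared ones and the ranks turned into normal scores, so that a difference of 1 is 1 SD of that scale. The normal score was 0.29 ± 0.04 lower at 39 °C (SE, limma, adjusted p = 0.000736). The highest summit of the region lay at the same base in 5 of 8 libraries, and the 201 bases around it, chr4:135169205-135169405 on the plus strand, held a single RUNX site.
Runx3 3′ intronic summit: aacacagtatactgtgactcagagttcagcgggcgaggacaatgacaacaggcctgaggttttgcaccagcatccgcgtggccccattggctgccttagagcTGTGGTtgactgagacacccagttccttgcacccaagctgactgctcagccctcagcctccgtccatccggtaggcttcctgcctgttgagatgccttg

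The neighbouring region, chr4:135174779-135181164, spans the annotated 3′ end. It was covered over 6354, 4647, 2587 and 5437 bp at 37 °C, and at 39 °C over 406 bp in replicate 2 and 962 bp in replicate 3, with no peak in replicates 1 and 4. It too was chosen after its values were seen. The proximal promoter of Runx3 stayed open in all 8 libraries. Its peak had percentiles of 84.6, 80.4, 77.7 and 84.4 at 37 °C and 77.6, 75.8, 75.9 and 72.0 at 39 °C, where the highest value at 39 °C was below the lowest at 37 °C. In replicates 1 and 4 at 37 °C the peak over the promoter had its summit 38.4 kb from the first start, beyond the proximal starts, which begin 31.8 kb from it, so that 84.6 and 84.4 are values of that broad peak. In the other 6 libraries the summit lay 31.9 to 33.2 kb from the first start. These within-list percentiles fell for most regions, with a median shift of −6.84 points and an exact permutation p under 0.05 for a lower value at 39 °C in 54.2% of shared regions.

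The consensus region there, chr4:135150028-135160886, also runs past the promoter into the gene. Its highest summit was 38.4 kb from the first start in 6 libraries and among the proximal starts in replicates 1 and 4 at 39 °C, so its rank, which differed by −0.01 ± 0.04 (SE, limma, adjusted p = 0.835), is not a measure of the promoter. It was covered over 10785, 9097, 8743 and 9794 bp at 37 °C and 7256, 7296, 6906 and 6584 bp at 39 °C, without overlap. The log2 width was 0.45 lower at 39 °C (limma, adjusted p = 0.0196). This call was lost after division by the library's median width (adjusted p = 0.234) and with the replicate number as a block (adjusted p = 0.0676). It was also lost without replicate 1 or 4 at 37 °C or replicate 3 at 39 °C (adjusted p = 0.0984, 0.0721 and 0.0615).

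Upstream of Runx3, 7 of the regions were called in fewer libraries at 39 °C. Of 11 regions in the upstream flank, 4 were called in all 8 libraries and the other 7 were called in 2 to 4 libraries at 37 °C and in 0 or 1 at 39 °C, and 3 of the 7 were called only in the deep libraries, replicates 1 and 4 at 37 °C. Of all consensus regions, 37.9% were called in fewer libraries at 39 °C. The region chr4:135106510-135107558, at −13.6 kb from the first start, was restricted to 37 °C, with percentiles of 34.7, 14.7, 26.8 and 25.4. The remaining restricted region of the window, chr4:135221602-135222502, lies in Clic4, a neighbouring chloride channel family gene, and had percentiles of 40.6, 24.9, 10.3 and 41.2. With lists of equal length the first was called in replicate 3 at 37 °C alone and the second in 2 of 4 libraries at 37 °C, so both calls ended there.

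Of the 8 Runx3 regions called in all libraries, 3 ranked higher at 37 °C (19.8% of all shared regions) and 1 at 39 °C (18.3%). On within-list percentiles 6 were higher at 37 °C (52.6% of all shared regions) and 0 at 39 °C (1.09%). The region with the largest fall in within-list percentile, chr4:135101702-135103296, at −18.2 kb, had values of 57.8, 51.1, 50.9 and 61.4 at 37 °C and 16.1, 29.0, 25.5 and 10.96 at 39 °C. It lay lower in every library at 39 °C, with a normal score difference of −0.92 ± 0.13 (SE, limma, adjusted p = 0.00102). The higher rank at 39 °C belonged to chr4:135079312-135081055, at −40.6 kb, with percentiles of 80.0, 75.2, 75.8 and 79.8 against 77.2, 76.2, 76.6 and 71.4. These percentiles overlapped. The normal score was 0.16 ± 0.04 higher (SE, limma, adjusted p = 0.00890), while the within-list percentile differed by −2.37 points (limma, adjusted p = 0.290). It was chosen after its values were seen. The highest region outside a promoter, chr4:135190598-135193908 in the downstream flank, stayed at 87.8 or above in all 8 libraries and its rank difference was −0.08 ± 0.04 (SE, limma, adjusted p = 0.188). Its percentiles were lower at 39 °C without overlap, as in 54.2% of shared regions. Its log2 width differed by −0.66 (limma, adjusted p = 0.0441), a call kept in 1 of 12 alternatives.

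**Figure D3:**
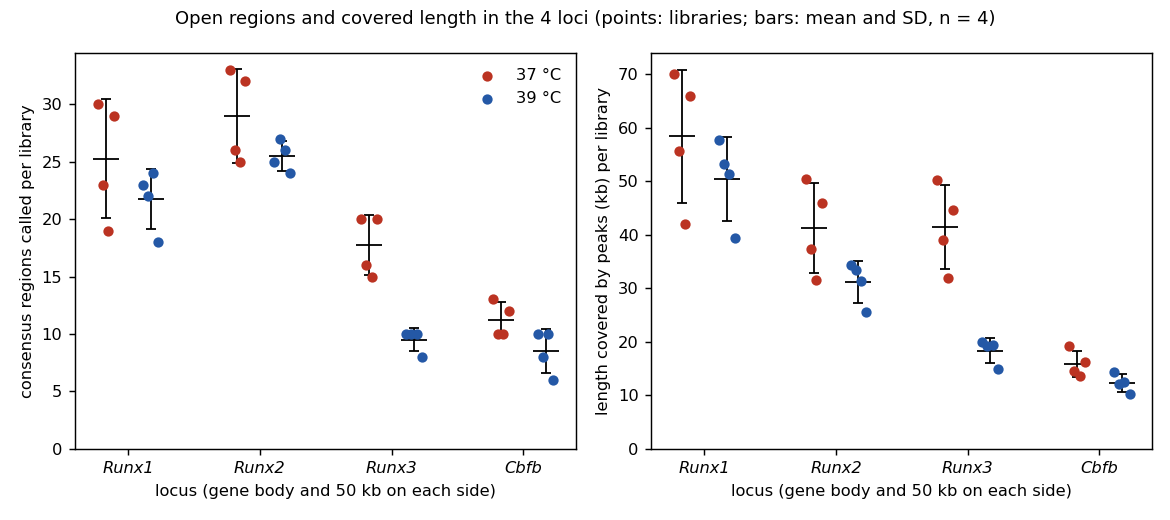
Consensus regions called (left) and kb covered by peaks (right) per library at each locus, with 1 point per library, red for 37 °C and blue for 39 °C, and black bars for the mean and SD of 4 libraries. Only at Runx3 do the red and blue points separate in both panels, with 15 to 20 against 8 to 10 regions.

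Runx1 had no such separation. Its window called 30, 23, 19 and 29 regions at 37 °C and 23, 22, 24 and 18 at 39 °C, and the groups overlapped. The difference of −3.5 regions had an exact permutation p of 0.286 (adjusted p = 0.450), and it turned to +0.75 when all lists were limited to equal length. Its covered length was 70.03, 55.6, 42.0 and 65.9 kb at 37 °C and 57.7, 53.3, 51.4 and 39.5 kb at 39 °C, a ratio of 0.864 (exact permutation p = 0.286). The Runx1 window spans 324.7 kb, against 157.3 kb at Runx3. At least 31 regions were held by 1.04% of coding gene windows, a share that takes no account of window length.

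Both Runx1 promoters were open in all 8 libraries. The distal promoter region, chr16:92822276-92829566, covered 6536 to 7061 bp at 37 °C and 6130 to 6611 bp at 39 °C. Its summit lay 2.04 to 2.23 kb upstream of the distal starts in all 8 libraries, so its percentile and rank are those of the broad peak over the promoter. Its percentiles were 95.1, 91.4, 88.8 and 93.7 at 37 °C and 87.5, 87.6, 87.0 and 84.0 at 39 °C, without overlap, a fall found in 54.2% of shared regions. Its rank among shared regions differed by −0.21 ± 0.08 (SE, limma, adjusted p = 0.0696), by −0.14 (adjusted p = 0.100) without replicate 1 at 37 °C and by −0.28 (adjusted p = 0.0176) without replicate 3 at 37 °C. It was −0.09 (adjusted p = 0.275) in the 6 shallower libraries. The within-list percentile differed by −5.74 points (limma, adjusted p = 0.0221), and 52.6% of shared regions passed that test with higher values at 37 °C. The proximal promoter region, chr16:92693012-92699791, which holds start clusters 2 and 3, had percentiles of 94.5 to 95.6 at 37 °C and 89.6 to 94.35 at 39 °C, and a rank difference of −0.05 ± 0.05 (SE, limma, adjusted p = 0.440).

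Across the Runx1 window, of 18 regions called in all libraries, 7 ranked higher at 39 °C and 2 at 37 °C, against 18.3% and 19.8% of all shared regions. Of the 7, 4 lay in the gene and 3 in its flanks. On within-list percentiles the balance was the other way, with 1 higher at 39 °C and 5 at 37 °C (limma), against 1.09% and 52.6% of all shared regions. The largest rise was in the intronic region chr16:92781825-92784323, 43.5 kb downstream of the first start. Its within-list percentiles were 55.4, 56.5, 42.8 and 58.6 at 37 °C and 64.7, 67.1, 68.4 and 52.6 at 39 °C. Only replicate 4 at 39 °C fell within the range of the 37 °C libraries. Among shared regions its mean percentile rose from 20.9 to 50.6, a normal score difference of 0.84 ± 0.09 (SE, limma, adjusted p = 0.000400). On within-list percentiles, the scale by which it was chosen, the rise of 9.86 points did not pass (limma, adjusted p = 0.106). It is shown because its 201 bases at the summit, chr16:92782521-92782721, hold 2 RUNX sites, on the plus strand of the genome.
Runx1 intronic element: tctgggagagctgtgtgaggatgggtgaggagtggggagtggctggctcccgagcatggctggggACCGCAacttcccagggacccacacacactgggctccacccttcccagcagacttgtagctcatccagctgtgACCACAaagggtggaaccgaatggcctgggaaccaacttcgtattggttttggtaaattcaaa

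The 2 regions described next were chosen after their values were seen. The intronic neighbour chr16:92776660-92780785 had a normal score higher by 0.29 ± 0.05 (SE, limma, adjusted p = 0.00281), while its within-list percentile differed by 1.75 points (adjusted p = 0.337). Toward the 3′ end of the gene, chr16:92605678-92613182, which overlaps the promoter of the noncoding RNA Gm26626, had percentiles of 92.4, 90.4, 88.4 and 93.0 at 37 °C and 94.8, 96.1, 94.7 and 93.1 at 39 °C. This was a rise in within-list percentile with no overlap between the groups, found in 0.798% of shared regions and in 1 of the 55 regions of the 4 loci. Its normal score rose by 0.45 ± 0.06 (SE, limma, adjusted p = 0.000903). The largest fall at Runx1 was downstream of the gene, at chr16:92581375-92582629, with 66.4, 62.9, 62.6 and 67.1 at 37 °C and 32.9, 29.0, 43.6 and 23.5 at 39 °C. All values at 39 °C were lower, and the normal score differed by −0.79 ± 0.10 (SE, limma, adjusted p = 0.000814). The highest element outside a promoter, the intronic region chr16:92619741-92626899, stayed between 95.6 and 98.7 in all 8 libraries.

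Runx2 held the most regions, in the longest of these windows (418.8 kb), and 0.762% of coding gene windows of any length held at least 33. It called 33, 26, 25 and 32 regions at 37 °C and 25, 27, 26 and 24 at 39 °C, with overlap between the groups. The difference was −3.5 (exact permutation p = 0.286, adjusted p = 0.450) and it turned to +1.5 with lists of equal length. The covered length was 50.4, 37.3, 31.6 and 45.9 kb against 34.3, 33.4, 31.4 and 25.6 kb, a ratio of 0.755 (exact permutation p = 0.0857).

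The distal promoter of Runx2, chr17:44813707-44815495, lies inside Supt3, a neighbouring gene for a subunit of the SAGA coactivator complex. Its percentiles were 83.7, 81.7, 79.7 and 84.4 at 37 °C and 77.2, 78.7, 79.2 and 74.4 at 39 °C, with no overlap. Such a fall without overlap was found in 54.2% of shared regions. The rank of this promoter among shared regions differed by 0.01 ± 0.03 (SE, limma, adjusted p = 0.748). The proximal promoter, chr17:44733259-44739023, was the 1 own promoter whose rank passed the test. Its percentiles were 91.4, 90.1, 89.4 and 91.4 at 37 °C and 92.0, 90.7, 90.3 and 89.1 at 39 °C, which overlapped with means of 90.6 and 90.5. Against the other shared regions its normal score was 0.16 ± 0.04 higher at 39 °C (SE, limma, adjusted p = 0.0118), or 0.16 (adjusted p = 0.0626) in the 6 shallower libraries, while the within-list percentile differed by −0.0951 points.

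Of 23 Runx2 regions called in all libraries, 7 ranked higher at 37 °C and 5 at 39 °C, where 19.8% and 18.3% of all shared regions did. On within-list percentiles 14 were higher at 37 °C and 0 at 39 °C (limma, 52.6% and 1.09% of all shared regions). The largest fall was in the downstream flank, chr17:44479987-44482159, with percentiles of 54.4, 38.0, 36.8 and 55.2 at 37 °C and 26.1, 22.1, 18.7 and 3.28 at 39 °C. No value at 39 °C reached those at 37 °C, and the normal score differed by −0.72 ± 0.18 (SE, limma, adjusted p = 0.0136). It was −0.42 (adjusted p = 0.0383) without replicate 4 at 39 °C, and in the 6 shallower libraries the call was lost (−0.54, adjusted p = 0.130). The largest rise was in the intronic region chr17:44554928-44556286, at 32.5, 18.8, 21.1 and 30.5 against 32.3, 31.1, 36.8 and 14.3. Its percentiles overlapped, and its normal score was 0.86 ± 0.10 higher (SE, limma, adjusted p = 0.000443), from a mean of 1.82 to 10.5 among shared regions. The within-list percentile differed by 2.88 points (limma, adjusted p = 0.672).

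One intronic element of Runx2, chosen after its values were seen, was narrower at 39 °C. The region chr17:44599010-44602853 was covered over 3781, 3510, 2444 and 3788 bp at 37 °C and 1474, 1501, 2100 and 1313 bp at 39 °C. Every width at 39 °C was below each at 37 °C, and the log2 width differed by −1.08 (limma, adjusted p = 0.00897). This call was lost with lists of equal length (−0.86, adjusted p = 0.0696) and in the 6 shallower libraries (−0.52, adjusted p = 0.466). It was also lost with the replicate number as a block (−1.08, adjusted p = 0.0509). Its rank gave no stable direction. The normal score was 0.17 ± 0.05 higher (SE, limma, adjusted p = 0.0356), a call lost when any library but replicate 3 at 37 °C was left out, and the within-list percentile differed by −3.07 points (adjusted p = 0.0702). The highest element outside a promoter, chr17:44499429-44503264 in the intron near the 3′ end, stayed between 96.3 and 98.6 in all 8 libraries.

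The Cbfb promoter was open in all 8 libraries. The region chr8:105169510-105172426 had percentiles of 98.1, 98.0, 98.0 and 98.1 at 37 °C and 97.9, 97.9, 98.2 and 97.2 at 39 °C. The groups overlapped, and the rank difference was 0.06 ± 0.03 (SE, limma, adjusted p = 0.203). It was the highest promoter of the 4 genes in each of the 8 libraries. The Cbfb window called 13, 10, 10 and 12 regions at 37 °C and 10, 8, 10 and 6 at 39 °C, a difference of −2.75 (exact permutation p = 0.171, adjusted p = 0.300), or −0.5 with lists of equal length. Its covered length was 19.1, 14.6, 13.6 and 16.25 kb against 14.4, 12.1, 12.5 and 10.3 kb, with a ratio of 0.775 (exact permutation p = 0.0571).

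The intronic region of Cbfb, chr8:105186063-105187379, was both its highest element outside a promoter and its largest rise. It had percentiles of 75.0, 71.9, 73.5 and 79.3 at 37 °C and 75.3, 75.4, 80.0 and 71.1 at 39 °C, which overlapped, and a normal score higher by 0.29 ± 0.05 (SE, limma, adjusted p = 0.00314), while the within-list percentile differed by 0.537 points (adjusted p = 0.858). The largest fall in within-list percentile, at chr8:105120621-105121750, ran from 66.2, 66.6, 67.7 and 69.6 to 56.0, 61.2, 62.5 and 51.2, but its rank among shared regions differed by 0.02 ± 0.08 (SE, limma, adjusted p = 0.838). The restricted region of this window, chr8:105259075-105260373, lies at Tradd, an adaptor of the TNF receptor, with percentiles of 18.6, 20.1, 14.2 and 27.2 at 37 °C, and it was called in no library with lists of equal length.

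**Figure D4:**
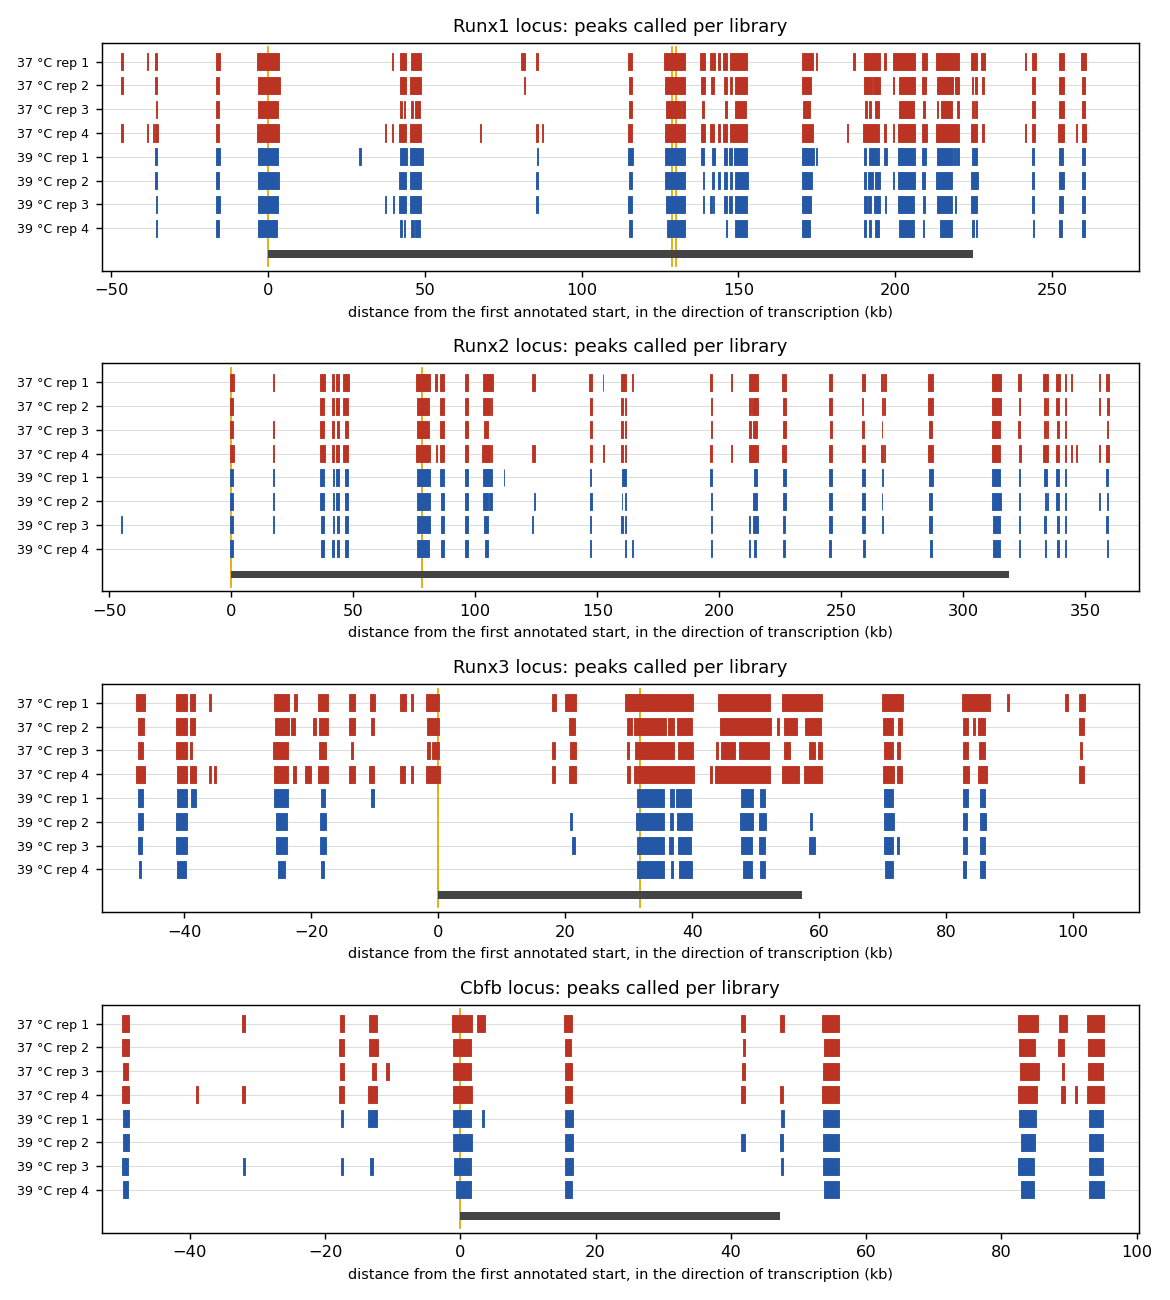
Peaks called in each library (rows, red for 37 °C and blue for 39 °C) across the 4 windows, against distance in kb from the first annotated start, with the gene as a grey bar and start clusters as yellow lines. Columns of peaks run through all 8 rows in 18 of 31 regions at Runx1, 23 of 33 at Runx2, 8 of 20 at Runx3 and 6 of 13 at Cbfb.

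Over the 4 loci 55 of 97 regions (56.7%) were called in all 8 libraries, compared with 52.9% of all consensus regions. Of the 97, 32 were called in fewer libraries at 39 °C, as were 37.9% of all regions, 2 in more, as were 5.46%, and 63, the 55 included, in equal numbers. In all, 9 (9.28%) were called only in the deep libraries, against 6.75% of all regions. Runx3 held 12 of the 32, Runx1 8, Runx2 7 and Cbfb 5. The 4 regions restricted to 37 °C were 4.12% of the 97, below the 6.04% of all regions, and the count was 8 without replicate 3 at 37 °C. By place, 6 of 7 own promoter regions, 7 of 9 at promoters of other genes, 25 of 44 intronic regions, 11 of 18 in downstream flanks, 6 of 18 in upstream flanks and 0 of 1 in an own exon were called in all libraries.

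The rank test called 27 of the 55 shared regions (49.1%), against 38.1% of the 44861 tested. Of these, 13 ranked higher at 37 °C (19.8% of all tested) and 14 at 39 °C (18.3% of all tested). The balance depended on the scale, since within-list percentiles, taken over lists that were shorter at 39 °C, gave 28 higher at 37 °C and 1 at 39 °C, against 52.6% and 1.09% of all tested. Width passed in 8 regions, all wider at 37 °C, against 14.9% of all tested regions wider at 37 °C and 0.459% at 39 °C, of which 4 lay at Runx3, 3 at Runx2 and 1 at Runx1. This count was 2 without replicate 1 or replicate 4 at 37 °C, the deep libraries, 5 without replicate 2 at 37 °C, 13 without replicate 3 at 37 °C, and 4 and 5 without replicates 3 and 4 at 39 °C. The median log2 width difference was −0.25 for the 55 regions and −0.24 for all shared regions. After division by library medians 5 of the 55 were wider at 37 °C and 6 at 39 °C, and the shares of all shared regions on that scale are not given here.

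**Figure D5:**
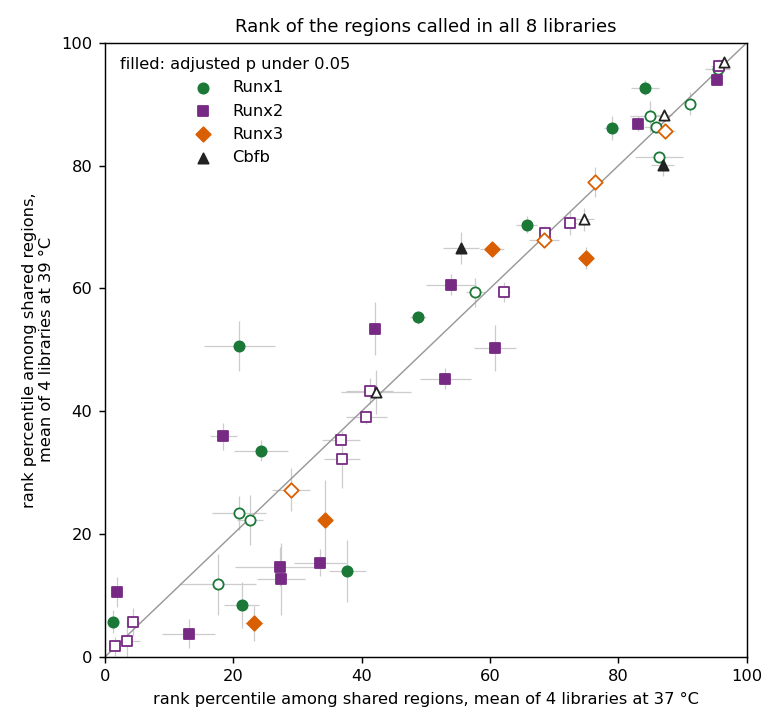
Mean rank percentile among shared regions at 37 °C (horizontal) and 39 °C (vertical) for the 55 regions called in all 8 libraries, with SD bars over 4 libraries, a symbol per locus and filled symbols where the limma adjusted p was under 0.05. Filled symbols lie on both sides of the diagonal, 13 below it and 14 above it, and the farthest above is the Runx1 intronic element at 20.9 and 50.6.

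Motifs were counted in the 201 bp around each summit, on both strands. RUNX sites were present in 28 of 97 regions (28.9%), compared with 27.4% of all consensus regions, and lay in 9 regions of Runx1, 7 of Runx2, 7 of Runx3 and 5 of Cbfb. The AP-1 site TGANTCA was present in 33.0% of the 97 and 29.0% of all regions, with 14 of its 32 regions at Runx2. The TEAD site GGAATG was present in 10.3% against 16.9%, in 7 regions of Runx2 and 0 of Runx3. The NFY site CCAAT was present in 22.7% against 22.6%, and the p53 decamer in 4.12% against 7.27%. These matches are descriptions of letters and not measured binding.

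Among genes of the RUNX pathway, cofactors were open at both temperatures. All 22 partner genes, among them the Tle corepressors, Ep300, Crebbp, Yap1 and Twist1, had a promoter peak in 8 of 8 libraries, as did 59.9% of 21911 coding genes. The lists were compiled with earlier results of these data known. Of 10 bone and cartilage targets 6 had a promoter peak in all libraries, among them Col1a1, Sp7, Alpl, Spp1 and Bglap. Their heights differed, with percentiles at 39 °C of 88.3 to 90.25 at Col1a1, 14.3 to 19 at Sp7 and 3.28 to 15.1 at Bglap. The promoters of Ibsp, Mmp13 and Col10a1 had none, as did 31.3% of coding genes, and that of Ihh, a cartilage hedgehog ligand, was called in 4 libraries at 37 °C and 2 at 39 °C.

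Targets known from blood and lymphoid cells were called in part. Of 11 found in the annotation 5 were called in all 8 libraries, namely Gfi1, Gfi1b, Zbtb7b, Cebpa and Ly6a, and Cd4 and Mpo in none. Spi1, which encodes the myeloid factor PU.1, was called in 3 libraries at 37 °C and none at 39 °C, and Itgal in 2 and none. Among neural targets, the promoter of Ret was called in 8 libraries, that of Ntrk3, the receptor of proprioceptive neurons, in 4 at 37 °C and 1 at 39 °C, and that of Ntrk2 in none. In all, 6 of 47 partners and targets were called in fewer libraries at 39 °C, as were 7.97% of coding genes, and 0 in more, as were 0.47%. None of the 47 was restricted, against 1.47% of coding genes restricted to 37 °C and 0.0137% to 39 °C.

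The genes with the most similar pattern were taken as the pair of coding genes, of 9062 compared, with the smallest mean difference over 8 libraries in the percent of window regions called. For Runx3 they were Itfg2, at 0.625 points, and Timm10, at 0.833 points, and the Runx3 window itself had a mean of 88.8% of its regions called at 37 °C and 47.5% at 39 °C. For Runx1 they were Fbxw11 (2.77 points) and Eif4a2 (2.92 points), for Runx2 4921536K21Rik (1.71 points) and Ccdc80 (1.84 points), and for Cbfb Cse1l and Dusp14 (1.92 points each).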

How the data were processed

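The authors aligned paired reads to mm10 with Bowtie2 2.4.1, removed duplicates with Picard 2.26.11 and SAMtools 1.15.1, and called peaks for each library with MACS3 3.0.0a7, without a control or local background, with a q-value threshold of 0.05. The caller kept 1 fragment at each position, per the file headers. The deposited lists give pileup signal, fold enrichment (a ratio to a genome-wide background), −log10 p-value and −log10 q-value. Peak numbers in the lists run without gaps, so whether the blacklist filter described in the study's methods had been applied to them is not known, and peaks in such regions may count in list lengths and percentiles. Pileup and fold enrichment were not compared between libraries.

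Peaks were merged at 1 bp of overlap and kept when at least 2 libraries called them. Ranks and log2 widths were tested with limma 3.58.1 in R 4.3.3, with Benjamini-Hochberg adjustment over 44861 regions, and counts per window with a two-sided exact permutation test over 70 assignments (Python 3.11.15, numpy 2.4.6, scipy 1.17.1). Tests were checked on simulated data. The labels do not say that replicates were separate cultures, so p-values measure only the spread between these samples. Members, gene lists, tests and motifs were chosen with earlier results of these data known. Regions described singly were start clusters, restricted regions and, per locus, the highest region outside promoters and the largest within-list percentile differences in each direction among regions called in all libraries, and others are named as chosen later. Alternatives covered thresholds of 2 and 5 on −log10 q, equal numbers of peaks, 50% cover, summit windows, flanks of 20 and 100 kb, other consensus rules, libraries under 100 M fragments, a replicate block, other scales, and each library left out. Covered length was added after the data were seen. Tcrb was not found in the annotation, and some listed genes are not reported here. RNA and chromatin capture data were not analysed here.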

Additional observations from a re-analysis of the deposited data

Results flagged for a closer look

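Among 31 groups of 4 libraries checked for a value far from the other 3, replicate 4 at 39 °C, the library with the fewest peaks, stood apart in 3. It called 8 regions at the Runx3 locus, where the other 3 libraries at 39 °C called 10 each. Its peaks covered 14.95 kb of that locus, against 19.2 to 19.9 kb in the others. Its peak at the distal promoter of Runx1 had a percentile of 84.0, against 87.0 to 87.6. Chance marks about 1 in 20 such groups.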

How the results depend on the processing

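Peak lists of different depth limit every count here, since a region can be missed in a shorter list, and 6 of 8 libraries were under 100 M fragments. With equal numbers of peaks the difference in called regions turned to +0.75 at Runx1 (exact permutation p = 0.371) and +1.5 at Runx2 (exact p = 0.171) and was −2.5 at Runx3 (exact p = 0.0286) and −0.5 at Cbfb (exact p = 0.429), regions restricted to 37 °C fell to 1, the Runx3 distal promoter, those restricted to 39 °C were 2, and 4 were wider at 37 °C. In the 6 shallower libraries the difference was +0.75 at Runx1 (exact p = 0.867) and −7.75 at Runx3 (exact p = 0.0667, the smallest that design allows), 5 regions ranked higher at 37 °C, and 1 was wider at each temperature. The count that ranked higher at 39 °C in those libraries is not given here. With flanks of 20 and 100 kb, 2 and 8 regions were restricted to 37 °C, and at 100 kb the Cbfb difference was −6.75 (exact p = 0.0286). With summit windows 1 region was restricted to 39 °C. On within-list percentiles 28 regions were higher at 37 °C and 1 at 39 °C by limma, and 26 and 1 by the unadjusted exact permutation test. Relative to library medians 5 regions were wider at 37 °C and 6 at 39 °C. Shares over all regions are not given beside these counts of restricted, ranked and wider regions. The causes were not tested.

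Replicate numbers did not pair the libraries, as the correlations of same-numbered deviations were 0.12, −0.06, 0.08 and −0.06. With the replicate number as a block the Runx3 difference of −8.25 had an exact p of 0.125, the smallest that 16 sign changes allow, and 1 region was wider at 37 °C.

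Without 1 library at a time, differences ranged from −5.58 to −1.58 at Runx1, −4.83 to −1.17 at Runx2, −9.25 to −6.50 at Runx3 and −3.25 to −1.92 at Cbfb. Regions restricted to 37 °C ranged from 4 to 8, with 8 without replicate 3 at 37 °C. Regions higher in rank at 37 °C ranged from 10 to 14 and at 39 °C from 12 to 13. Regions wider at 37 °C ranged from 2 to 13, with 2 without replicate 1 or replicate 4 at 37 °C, 5 without replicate 2, 13 without replicate 3, and 4 and 5 without replicates 3 and 4 at 39 °C.

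Of the single regions, 3 that passed the rank test turned in sign on within-list percentiles, to −0.0951 points at the Runx2 proximal promoter, −3.07 at chr17:44599010-44602853 in Runx2 and −2.37 at chr4:135079312-135081055 upstream of Runx3. Of those that did not pass it, the sign turned to −0.51 points at the Runx1 intronic region chr16:92619741-92626899, −0.318 at the Runx2 intronic region chr17:44499429-44503264, −4.95 at the Runx2 distal promoter, −9.79 at the Cbfb region chr8:105120621-105121750 and −0.275 at the Cbfb promoter. For the Cbfb region the 6 shallower libraries gave −0.085. Leaving out a library gave normal score differences of −0.0811 to 0.0880 at the first of these, −0.00404 to 0.112 at the second, −0.0384 to 0.0144 at the region holding the Runx3 proximal promoter and −0.0211 to 0.0767 at chr8:105120621-105121750. Over all alternatives, 356 of 434 tested values kept their direction and their side of the threshold, and 89 of 112 counts stayed within 1.5 times.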
